A study of Mus musculus with 6 samples.

Results

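Forelimb buds of mouse embryos homozygous for the inversion Inv1 were compared with forelimb buds of G4 wild-type embryos, gene by gene within each cell class, at stage E11.5. Each side was 1 droplet single-cell RNA-seq library. Cells were assigned to a library and to a class by the authors' own annotation, cells with more than 2000 detected genes were kept, and classes with 10 or more kept cells in both libraries were described. This gave 3675 Inv1 cells and 2766 G4 wild-type cells, 6441 of the 7030 deposited forelimb cells and of the 26486 cells of the whole series. The 7 classes described held 6419 of them. In Inv1 and G4 wild type, there were 39 and 10 cells of the apical ectodermal ridge (AER), 45 and 24 of dorso-ventral ectoderm, 29 and 15 keratinocytes, 3337 and 2570 mesenchymal cells, 168 and 112 muscle cells, 30 and 16 endothelial cells, and 11 and 13 immune cells. Neuronal cells, with 16 in Inv1 and 6 in G4 wild type, were too few.

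G4 is a hybrid mouse embryonic stem cell line of 129sv and C57Bl6 background. Inv1 was made in these cells with CRISPR/Cas9, and mice were derived from the edited cells by aggregation. The inversion lies between Lbx1 and Fgf8 on chromosome 19. It carries the enhancers that drive Fgf8 in the AER into the chromatin domain of Lbx1 and Btrc, and it breaks Fbxw4. The study asked what such a rearrangement does to gene expression in the limb, and the 6 libraries of its single-cell experiment, 1 per group, include the hindlimb buds of the same genotypes. Those 5947 Inv1 and 5606 G4 wild-type hindlimb cells are used below only as a second pair that shares no library with the forelimb pair. Whether several embryos were pooled per library is not stated, nor whether fore- and hindlimb buds of a genotype came from the same embryos. The hindlimb pair may therefore share embryos, litter and background with the forelimb pair, and like values in both limbs are not independent replicates. Genotype, genetic background after breeding and library cannot be told apart with 1 library a side, so no test between the genotypes was possible. All intervals are 95% and cover counting error only.

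The AER is a ridge of thickened ectoderm that runs along the tip of the limb bud. It secretes FGFs, of which Fgf8 is made along the whole ridge and Fgf4, Fgf9 and Fgf17 in parts of it, and these keep the underlying mesenchyme growing and the digit field wide. The mesenchyme answers with Fgf10 and with BMP antagonists, and Shh from its posterior margin takes part in the same loop. Lbx1 is a homeobox factor of the muscle precursors that migrate into the limb. Btrc encodes the substrate-recognition subunit of an SCF ubiquitin ligase that marks beta-catenin and the NF-kB inhibitors for degradation.

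The Inv1 library held 41.5 M UMIs (median 10102 per cell) and the G4 wild-type library 26.6 M (median 8412). The G4 wild-type forelimb library stood apart. Its ribosomal protein genes took 19.1% of UMIs in mesenchyme, against 22.6% in Inv1, and in the 7 classes 71 to 77 of the 78 ribosomal protein genes were higher in Inv1. Its long transcripts were counted at higher levels. In mesenchyme the median log2 ratio, Inv1 over G4 wild type, was 0.15 for transcripts of up to 1435 bases, 0.06, -0.08 and -0.24 for those up to 2339, 3450 and 4983 bases, and -0.40 for longer ones, each of these 5 bins holding like numbers of genes. In the hindlimb pair the medians ran the other way and over a smaller range, from -0.06 for the shortest to 0.11 for the longest transcripts. Over all genes measured, the median log2 ratio was -0.19 in AER cells, -0.17 in dorso-ventral ectoderm, -0.13 in keratinocytes, -0.06 in mesenchyme, -0.11 in muscle, -0.11 in endothelial and -0.07 in immune cells, and ratios below are read beside these. The libraries shared 6 cell barcodes. The summed haemoglobin transcripts were lower in Inv1 in all 7 classes, for example 750 counts-per-million (CPM) against 1222 CPM in G4 wild-type mesenchyme.

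**Figure D1:**
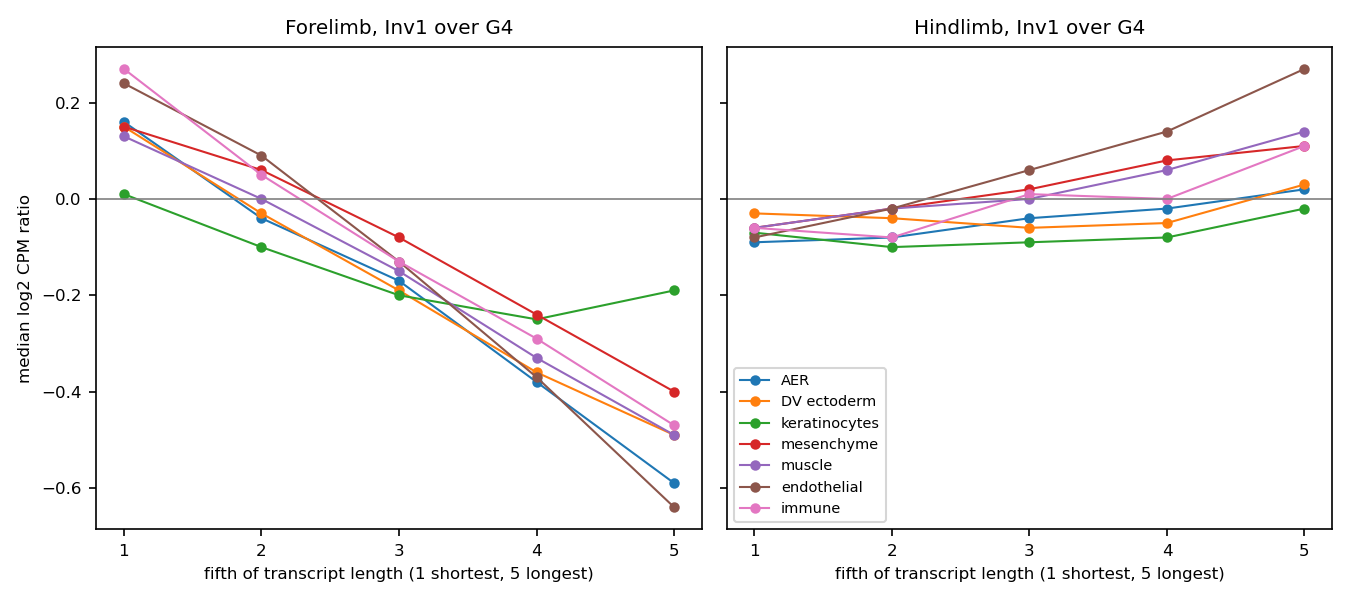
Median log2 ratio of CPM (vertical axis), Inv1 over G4 wild type, of genes in each of 5 bins of transcript length (horizontal axis), with 1 line per cell class, forelimb pair on the left and hindlimb pair on the right. In forelimb mesenchyme the medians run from 0.15 in the shortest bin to -0.40 in the longest, and in forelimb AER cells from 0.16 to -0.59.

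The class labels were checked against markers. AER markers summed to 3069 CPM in Inv1 AER cells and 3083 CPM in G4 wild-type AER cells, against 673 CPM and 816 CPM in dorso-ventral ectoderm of Inv1 and G4 wild type. All 11 AER markers other than Fgf8 were detected in both. The 16 mesenchyme markers summed to 1285 CPM in Inv1 AER cells and 2037 CPM in G4 wild-type AER cells, with 12 of them detected in Inv1 and 12 in G4 wild type, not all of them the same. No AER cell had a UMI of 10 or more of them. Because the authors named the AER class with Fgf8 and En1, its share of cells was set by a gene that the inversion changes, and a gate that did not use Fgf8 was applied to the epithelial classes. The gate took cells with a UMI of 3 or more of 8 AER markers, En1 among them. Such cells made up 1.77% of Inv1 cells (65 cells, interval 1.37 to 2.25) and 0.832% of G4 wild-type cells (23 cells, 0.528 to 1.25). The ratio was 2.13 (1.30 to 3.59), and 1.77 (1.29 to 2.44) in the hindlimb pair. Cells were not thinned for this gate, so its shares also depend on depth. Median UMIs in Inv1 and G4 wild type were 9194 and 7174 in AER cells and 12174 and 8800 in dorso-ventral ectoderm. In keratinocytes they were 13365 and 13559. Muscle made up 4.57% of Inv1 cells and 4.05% of G4 wild-type cells, a ratio of 1.13 (0.884 to 1.45).

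At the rearranged locus, Btrc and Lbx1 were higher and Fgf8 was lower in Inv1 AER cells. The coordinates are those of mouse assembly NCBIM37 (mm9), chromosome 19. Lbx1 lies at 45307178 to 45310301, Btrc at 45438224 to 45607831, Poll at 45626765 to 45635021, Dpcd at 45635105 to 45652769, Fbxw4 at 45652744 to 45734802 and Fgf8 at 45811288 to 45817405. Lbx1, Poll, Fbxw4 and Fgf8 are on the minus strand, Btrc and Dpcd on the plus strand. The values are UMIs over whole gene models, counted from the 3' end, and the ends of Dpcd and Fbxw4 overlap, so reads of these genes cannot be told apart there if strand was not used.

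Btrc was counted in all 39 Inv1 AER cells, with 1 to 57 UMIs a cell and a median of 18. In the 10 G4 wild-type AER cells it had 0 to 4 UMIs a cell and a median of 0, with 2 cells positive. Summed over cells, Btrc reached 2114 CPM in Inv1 (819 UMIs, interval 1971 to 2264) and 68.8 CPM in G4 wild type (5 UMIs, 22.3 to 161), a ratio of 30.7 (13.1 to 94.9). The hindlimb ratio was 21.5 (14.9 to 32.2). Lbx1 was counted in 28 Inv1 AER cells (75 UMIs, 194 CPM, 152 to 243) and in 1 G4 wild-type AER cell (1 UMI, 13.8 CPM, 0.348 to 76.7), a ratio of 14.1 (2.45 to 563). The Inv1 level of Lbx1 was thus known to counting error while that of G4 wild type rested on 1 UMI.

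Fgf8 went the other way. It had 4 UMIs in Inv1 AER cells, 1 in each of 4 cells, and 187 UMIs in G4 wild-type AER cells, with 3 to 30 a cell and a median of 19.5. These were 10.3 CPM (2.81 to 26.4) in Inv1 and 2574 CPM (2218 to 2970) in G4 wild type, a ratio of 0.00401 (0.00108 to 0.0104), against 0.00514 in the hindlimb pair. No Inv1 cell reached the lowest G4 wild-type cell. Mesenchyme, which does not make Fgf8 or Lbx1 at this stage in quantity, was taken for comparison, and free RNA was not estimated. In Inv1, mesenchyme held 28 Fgf8 UMIs in 22 cells, more than the 4 UMIs of AER cells, and their source was not tested. There, 0.659% of Inv1 cells and 1.75% of G4 wild-type cells had an Fgf8 UMI, and 0.240% and 0.545% an Lbx1 UMI, at median depths of 9807 and 8223 UMIs. In AER cells the medians were 9194 and 7174 UMIs in Inv1 and G4 wild type.

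The shares held at equal depth. After each cell was thinned to 4000 UMIs, Btrc was counted in 38 of 39 Inv1 and 2 of 10 G4 wild-type AER cells. Lbx1 was counted in 21 of 39 Inv1 and 1 of 10 G4 wild-type cells, and Fgf8 in 1 of 39 Inv1 and 10 of 10 G4 wild-type cells. Over the other scalings, cell limits and gates tried, with 0.5 counts added to both sides, the ratio ranged from 26.5 to 61.1 for Btrc, from 9.16 to 16.1 for Lbx1 and from 0.00397 to 0.00735 for Fgf8.

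**Figure D2:**
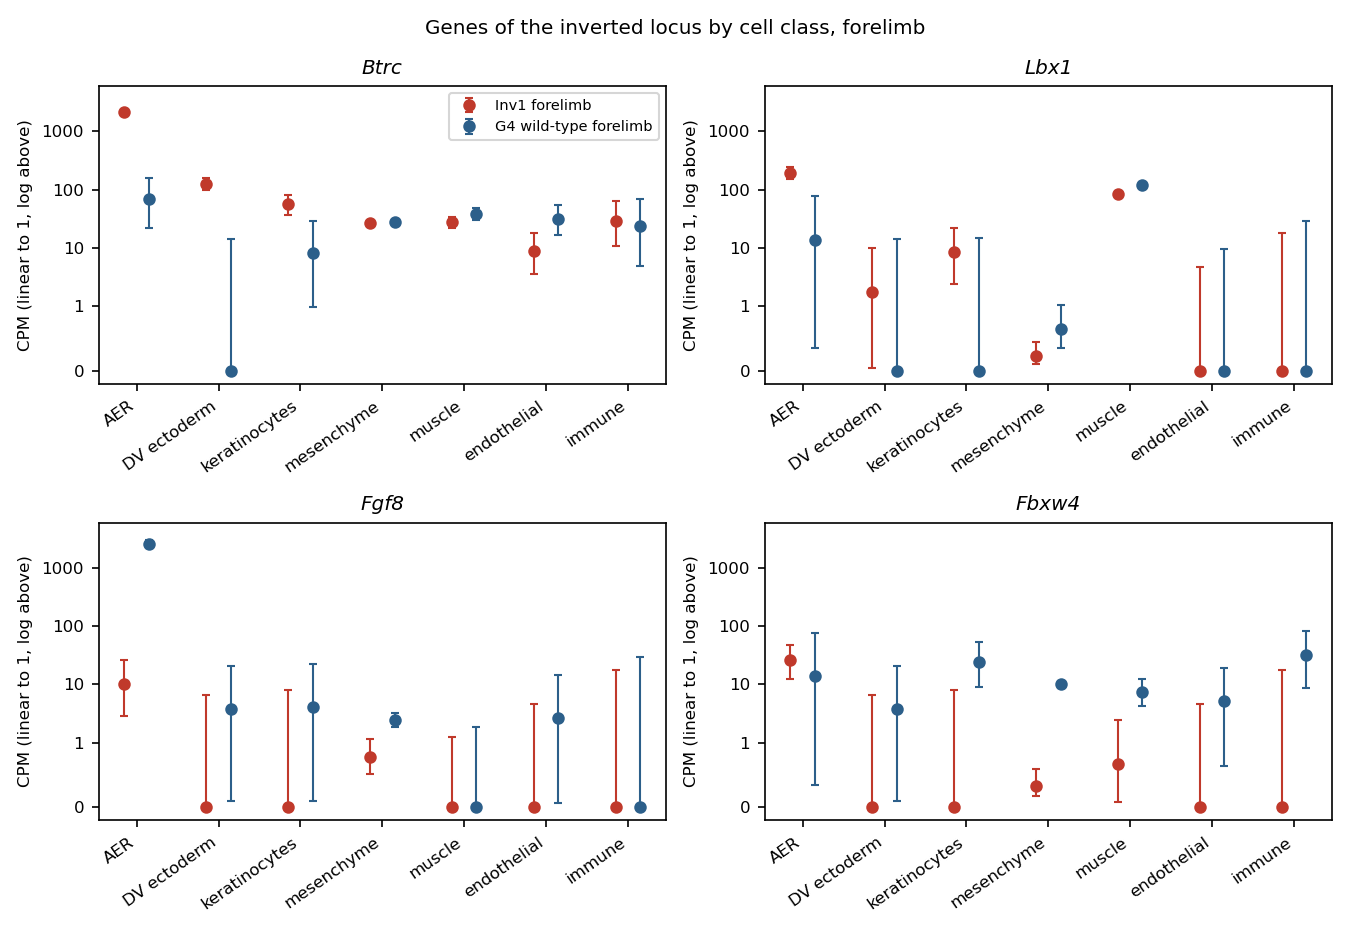
Level in CPM (vertical axis, logarithmic above 1 and linear below) of Btrc, Lbx1, Fgf8 and Fbxw4 in each of the 7 classes (horizontal axis), Inv1 in red on the left and G4 wild type in blue on the right, with exact Poisson intervals. In AER cells Btrc stands at 2114 CPM in Inv1 and 68.8 CPM in G4 wild type and Fgf8 at 10.3 CPM and 2574 CPM, while in mesenchyme Btrc overlaps between the genotypes at 26.6 CPM and 28.0 CPM.

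Btrc was also higher in Inv1 in cells labelled as the other epithelia. The marker gate, drawn from all epithelial classes, held 906 Btrc UMIs in Inv1, against 819 in the AER class. Most Btrc UMIs labelled dorso-ventral ectoderm or keratinocyte in Inv1 therefore lay in cells with 3 or more of the 8 AER markers. Btrc outside the AER and AER cells labelled otherwise cannot be told apart here. In dorso-ventral ectoderm it had 72 UMIs in 14 of 45 Inv1 cells (126 CPM, 98.9 to 159) and 0 UMIs in 24 G4 wild-type cells, which against 3 counts in G4 wild type is at least 11.2-fold, where the hindlimb ratio was 2.85. In keratinocytes it had 26 UMIs in 6 Inv1 cells and 2 UMIs in 2 G4 wild-type cells (56.0 CPM and 8.15 CPM, ratio 6.87, 1.72 to 59.7). In mesenchyme Btrc did not differ beyond counting error, with 26.6 CPM in Inv1 (953 UMIs) and 28.0 CPM in G4 wild type (655 UMIs), a ratio of 0.952 (0.861 to 1.05). It was lower in muscle (82 and 77 UMIs in Inv1 and G4 wild type, 0.716, 0.518 to 0.990) and in endothelial cells (7 and 12 UMIs, 0.280, 0.0935 to 0.772), but at 1.02 (0.791 to 1.33) and 1.33 (0.602 to 2.91) in hindlimb muscle and endothelial cells.

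Lbx1 in muscle, where wild-type limbs make it, was lower in Inv1. It had 85.2 CPM in Inv1 (256 UMIs, 108 of 168 cells) and 120 CPM in G4 wild type (242 UMIs, 86 of 112 cells), a ratio of 0.711 (0.594 to 0.851). Its Inv1 level in AER cells, 194 CPM, was thus above its level in muscle of either genotype. Shares of muscle cells with an Lbx1 UMI were 64.3% in Inv1 and 76.8% in G4 wild type, far above the mesenchyme shares given above.

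Fbxw4, the F-box gene that the inversion breaks, was near 0 in Inv1 mesenchyme, with 12 UMIs (0.335 CPM) against 235 UMIs (10.0 CPM) in G4 wild type. The ratio was 0.0334 (0.0170 to 0.0595), and 0.0432 in the hindlimb pair. In muscle it was 0.0896 (2 and 15 UMIs in Inv1 and G4 wild type, 0.00994 to 0.385). Inv1 keratinocytes had 0 Fbxw4 UMIs against 6 in G4 wild type, at least 3.79-fold lower, and Inv1 immune cells 0 against 4, at least 2.20-fold lower. The AER class was the exception, with 10 UMIs in 7 Inv1 cells (25.8 CPM, 12.4 to 47.5) and 1 UMI in 1 G4 wild-type cell (13.8 CPM). Its ratio of 1.88 (0.267 to 81.4) leaves either direction possible. Hindlimb AER cells had 33 UMIs in 25 Inv1 cells (49.6 CPM) and 10 UMIs in 9 G4 wild-type cells (37.1 CPM), a ratio of 1.34 (0.644 to 3.04). Fbxw4 UMIs in Inv1 AER cells were thus above the mesenchyme level in both limbs.

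The genes between Btrc and Fbxw4 moved less. Dpcd had 61.5 CPM in Inv1 mesenchyme (2201 UMIs) and 48.1 CPM in G4 wild-type mesenchyme (1125 UMIs), a ratio of 1.28 (1.19 to 1.38). In AER cells it had 22 and 8 UMIs in Inv1 and G4 wild type, a ratio of 0.516 (0.221 to 1.34), and with the marker gate this direction turned, to 1.11 with 0.5 counts added. Poll, a DNA repair polymerase, had 310 and 219 UMIs in Inv1 and G4 wild-type mesenchyme and a ratio of 0.926 (0.776 to 1.11). Of 24 further neighbours on chromosome 19, 7 were measured in AER cells, 2 higher and 5 lower in Inv1, beside 38.5% of all genes higher. Their median log2 ratio was -0.32, beside -0.19 for all genes. The histone chaperone gene Npm3 had 36 UMIs in Inv1 and 21 in G4 wild-type AER cells (92.9 CPM and 289 CPM, 0.321, 0.183 to 0.580), and 0.245 in the hindlimb pair, while its mesenchyme ratio was 1.11. Nolc1, a nucleolar phosphoprotein gene, was at 0.305 (0.117 to 0.848) in forelimb and 1.09 in hindlimb AER cells, and Ldb1, the LIM-domain binding cofactor gene, at 0.975.

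Among AER cells, 3142 genes were measured, meaning a mean of 50 or more CPM over both libraries and 20 or more UMIs in all. Of these, 128 (4.07%) were 2-fold or more higher in Inv1 and 379 (12.1%) 2-fold or more lower. Higher genes made up 25.2% of those past 2-fold as measured, 44.4% under median-of-ratios scaling, 55.2% relative to genes of like length and 42.6% relative to mesenchyme of the same libraries. The lower genes past 2-fold therefore depended on the scaling. With 10 G4 wild-type cells, 3 counts amounted to 41.3 CPM there and to 7.74 CPM in Inv1.

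Fgf4 and Fgf9 were higher in Inv1. Fgf4 had 87 UMIs in 25 of 39 Inv1 AER cells, with at most 9 a cell and a median of 1, and 0 UMIs in 10 G4 wild-type cells. This was 225 CPM (180 to 277) in Inv1 and 0 CPM (0 to 50.8) in G4 wild type, at least 5.44-fold higher. The hindlimb pair, with 205 UMIs in Inv1 and 0 in G4 wild type, gave at least 27.7-fold. After thinning, 20 of 39 Inv1 AER cells and 0 of 10 G4 wild-type AER cells had an Fgf4 UMI. Before thinning, 0 of 3337 Inv1 mesenchymal cells had one, which allows a share of cells with a UMI, not of cells that express the gene, of up to 0.0899%.

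Fgf9 had 114 UMIs in 33 Inv1 AER cells and 10 UMIs in 4 G4 wild-type AER cells, 294 CPM and 138 CPM, a ratio of 2.14 (1.12 to 4.58) and of 4.29 (2.67 to 7.27) in the hindlimb pair. Its G4 wild-type cells reached 7 UMIs and the Inv1 cells 11, so the cells of the genotypes overlapped. Fgf3 and Fgf17 did not pass the filter. Fgf3 had 10 UMIs in 9 Inv1 cells and Fgf17 had 3 UMIs, both with 0 in G4 wild type, and neither reached a level above the G4 wild-type floor.

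**Figure D3:**
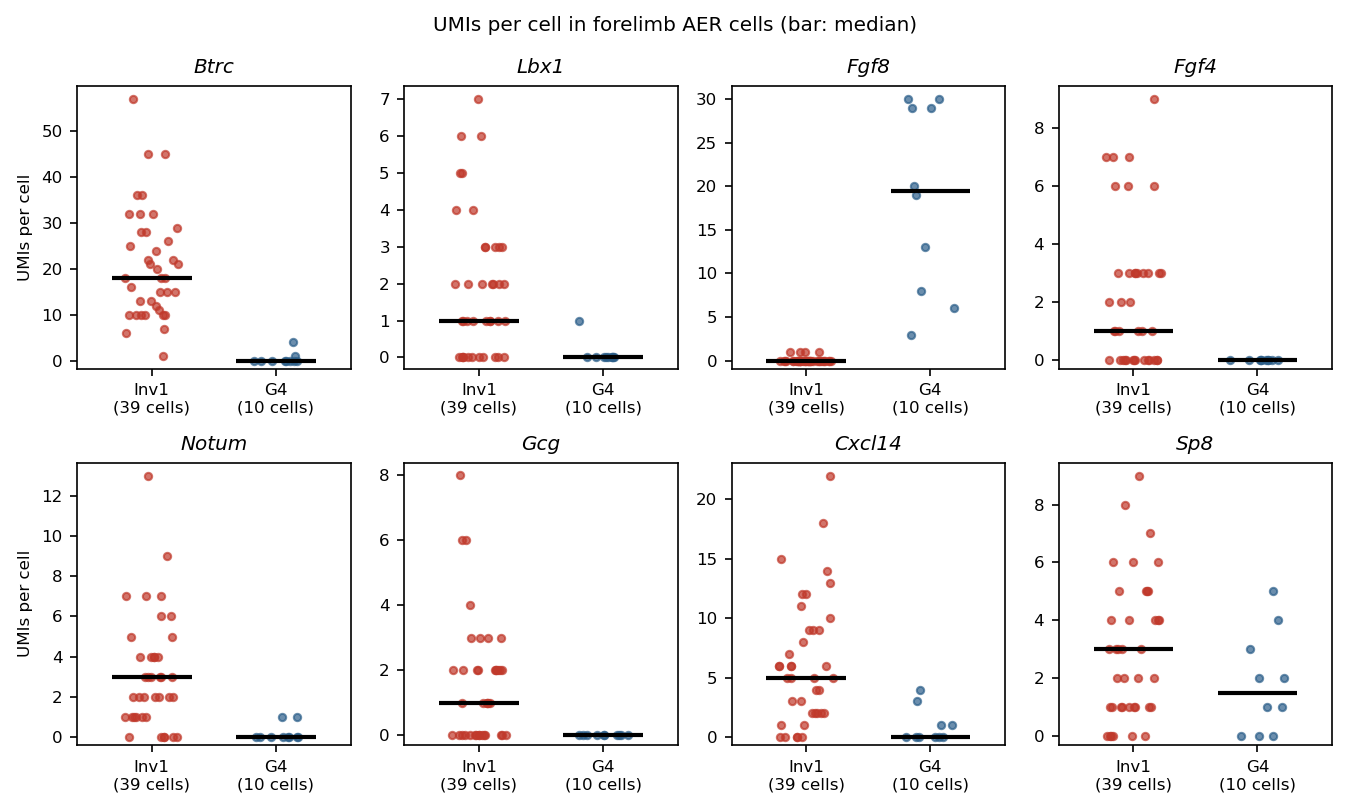
UMIs per cell (vertical axis) of Btrc, Lbx1, Fgf8, Fgf4, Notum, Gcg, Cxcl14 and Sp8 in the 39 Inv1 AER cells (left) and the 10 G4 wild-type AER cells (right), 1 point per cell with a bar at the median. The median of Btrc is 18 in Inv1 and 0 in G4 wild type, and that of Fgf8 is 0 in Inv1 and 19.5 in G4 wild type.

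Among the listed ridge transcription factors and ligands other than the FGF genes above, no measured one passed 2-fold. The authors named this class with Fgf8 and En1, so levels of ridge genes within it, En1 above all, are not independent of the labelling. Of 17 AER regulators and ligands, 14 were measured, 0 past 2-fold in either direction and none with an interval that left out 1. Sp8, a zinc-finger factor upstream of Fgf8, had 294 CPM in Inv1 and 248 CPM in G4 wild type (114 and 18 UMIs, 1.19, 0.719 to 2.08). Trp63, the p63 factor of stratified epithelia, stood at 0.776 (0.514 to 1.21), and the homeobox factors En1 at 0.865 (0.515 to 1.53) and Dlx5 at 1.26 (0.666 to 2.64). These intervals are wide, reaching down to 0.514 for Trp63 and up to 2.64 for Dlx5. Relative to genes of like length, 85.7% of the 14 were higher, against 42.9% as measured.

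Among the secreted factors, Bmp4 was at 1.21 (0.882 to 1.68), Wnt5a at 0.747 (0.564 to 1.00) and the Wnt agonist Rspo2 at 0.974. The Notch ligand Jag2, which limits the ridge, was at 1.23. Wnt10b, a ligand expressed in the ridge, was below the filter but had 33 UMIs in 20 of 39 Inv1 cells (85.2 CPM) and 0 in 10 G4 wild-type cells, at least 2.06-fold higher, with 4.22 (1.95 to 10.9) in the hindlimb pair. The median log2 ratio of the measured regulators and ligands was -0.07 in the forelimb and 0.04 in the hindlimb pair. In hindlimb AER cells, where more cells were counted, En1 was at 0.438, Msx2 at 0.416 and Dlx2 at 0.315. Forelimb values for Msx2 and Dlx2 were 0.964 and 1.58.

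Genes of the Wnt/beta-catenin response did not move together. Of 14 genes, 9 were measured, 1 past 2-fold higher and 2 past 2-fold lower, beside 4.07% and 12.1% of all genes. In Inv1, 6 of 9 were lower, where 38.5% of all genes were higher. The median log2 ratio was -0.39 in the forelimb and 0.40 in the hindlimb pair. Notum, a secreted enzyme that inactivates Wnt ligands, had 123 UMIs in 33 of 39 Inv1 cells and 2 UMIs in 2 of 10 G4 wild-type cells. It reached 317 CPM in Inv1 and 27.5 CPM in G4 wild type, with an interval of the ratio of 3.13 to 96.3, against a ratio of 1.54 (1.09 to 2.23) in the hindlimb pair, where G4 wild-type cells held 41 UMIs. Axin2, a feedback inhibitor of the pathway, had 206 CPM in Inv1 and 193 CPM in G4 wild type (1.07, 0.603 to 2.05), and 2.98 (1.90 to 4.89) in the hindlimb pair.

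Tcf7, a nuclear partner of beta-catenin, was lower at 59.4 CPM in Inv1 and 206 CPM in G4 wild type (0.288, 0.144 to 0.593), with 0.919 in the hindlimb pair. The Wnt antagonist Dkk1 had 82.6 CPM in Inv1 and 193 CPM in G4 wild type (0.429, 0.222 to 0.869), and 0.195 in the hindlimb pair. Of this pair, Dkk1 was lower beyond counting error in both limbs and Tcf7 in the forelimb. Ctnnb1, which encodes beta-catenin itself, had 1285 CPM in Inv1 and 950 CPM in G4 wild type, 1.35 (1.05 to 1.77) and 1.51 in the hindlimb pair. Of the SCF ligase genes, the scaffold Cul1 was at 1.07 and the adaptor Skp1a at 0.888, and 0 of the 6 measured of 12 were past 2-fold.

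The targets of FGF signalling through ERK in AER cells were lower in 3 of 4 measured, of a list of 13, and no interval left out 1. Over all genes measured in AER cells, 38.5% were higher in Inv1, so most genes were lower there too. Spry2, a feedback inhibitor, was at 1.44 and its relatives Spry1 and Spred1 at 0.820 and 0.539. BMP response genes gave 3 higher and 3 lower of 6 measured (of 9), with the inhibitor of differentiation genes Id1 at 1.15, Id2 at 0.763 and Id3 at 1.40. In the hindlimb pair all of the 6 measured BMP response genes were lower, with a median log2 ratio of -0.83, and Id2 was at 0.119.

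Further genes set Inv1 AER cells apart. Besides Fgf4 and Notum, the genes with the highest ratios by the lower end of their interval included Gcg, the proglucagon gene, with 62 UMIs in 24 Inv1 cells and 0 in G4 wild-type cells (160 CPM, at least 3.88-fold higher). Gcg was also at 0 in G4 wild-type hindlimb AER cells and at 38 UMIs in Inv1 ones, at least 5.13-fold. Cxcl14, a chemokine gene, had 245 UMIs in 34 Inv1 cells and 9 UMIs in 4 G4 wild-type cells (632 CPM and 124 CPM, 5.11, 2.65 to 11.3), with 5.27 in the hindlimb pair. Fzd10, a Wnt receptor gene, had 390 CPM in Inv1 and 96.3 CPM in G4 wild type (4.05, 1.92 to 10.2), and 3.38 in the hindlimb pair.

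Epithelial and growth factor genes followed. The adhesion gene Epcam had 1580 CPM in Inv1 and 702 CPM in G4 wild type (612 and 51 UMIs, 2.25, 1.69 to 3.06), and the heparin-binding growth factor gene Ptn 5017 CPM and 2780 CPM (1944 and 202 UMIs, 1.80, 1.56 to 2.10). Of 19 surface ectoderm genes, 9 were measured, 5 higher and 4 lower, with Wnt6 at 1.64 (1.22 to 2.25) and Krt5 at 1.09. Fkbp11, which encodes a chaperone of the endoplasmic reticulum, was at 9.19 (49 and 1 UMIs in Inv1 and G4 wild type, 1.57 to 370) and Ppic, a cyclophilin gene, at 3.30 (1.55 to 8.37).

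Several higher genes varied with the choice of AER cells or with the limb. Sar1b, a secretory-pathway GTPase gene, had 47 UMIs in 25 Inv1 cells and 0 in G4 wild-type cells, but 0.476 (0.306 to 0.745) in the hindlimb pair. Ube2c, which serves mitotic exit, was at 4.46 (119 and 5 UMIs, 1.86 to 14.0) but at 0.557 (0.420 to 0.742) in the hindlimb pair, and Ndufs7, a subunit gene of respiratory complex I, at 9.56 (51 and 1 UMIs, 1.64 to 385) and 0.810. In the 65 Inv1 and 23 G4 wild-type cells of the marker gate, with 0.5 counts added, ratios were 1.04 for Cxcl14, 1.48 for Sar1b, 1.14 for Ube2c, 1.40 for Ndufs7 and 1.48 for Epcam. Of 16 proliferation genes, Ube2c among them, 7 of 10 measured were higher in forelimb AER cells, with a median log2 ratio of 0.37, against -0.43 in the hindlimb pair, and with the marker gate 7.14% of measured members were higher.

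Most lower genes named in Inv1 AER cells were not lower beyond counting error in the hindlimb pair. Itga4, an integrin subunit gene, had 24 UMIs in 17 Inv1 cells and 32 UMIs in all 10 G4 wild-type cells (61.9 CPM and 440 CPM, 0.141, 0.0793 to 0.246), but 1.16 in the hindlimb pair. Pik3r1, a regulatory subunit gene of PI 3-kinase, had 157 CPM in Inv1 and 564 CPM in G4 wild type (0.279, 0.185 to 0.425), and 0.791 in the hindlimb pair. The zinc-finger factor Klf4 was at 0.156 (10 and 12 UMIs, 0.0605 to 0.395), the microtubule adaptor gene Hook3 at 0.222 and the protocadherin gene Fat3 at 0.320. With the marker gate, the ratios were 0.254 for Itga4, 0.546 for Klf4, 0.467 for Hook3, 0.588 for Pik3r1 and 0.560 for Fat3.

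The imprinted zinc-finger genes Peg3 and Zim1 were the lower genes that the hindlimb pair shared beyond counting error. Peg3 had 142 CPM in Inv1 and 468 CPM in G4 wild type (55 and 34 UMIs, 0.303, 0.194 to 0.480), with 0.367 (0.293 to 0.459) in the hindlimb pair. Zim1 was at 0.231 (16 and 13 UMIs, 0.104 to 0.522) and 0.420. Over the 12 higher and 12 lower genes named in AER cells, 8 higher and 2 lower ones had a hindlimb interval wholly on the same side of 1, and 2 higher and 2 lower ones wholly on the opposite side. Of all genes measured in hindlimb AER cells, 43.1% were higher in Inv1, and the share with such an interval was not counted.

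**Figure D4:**
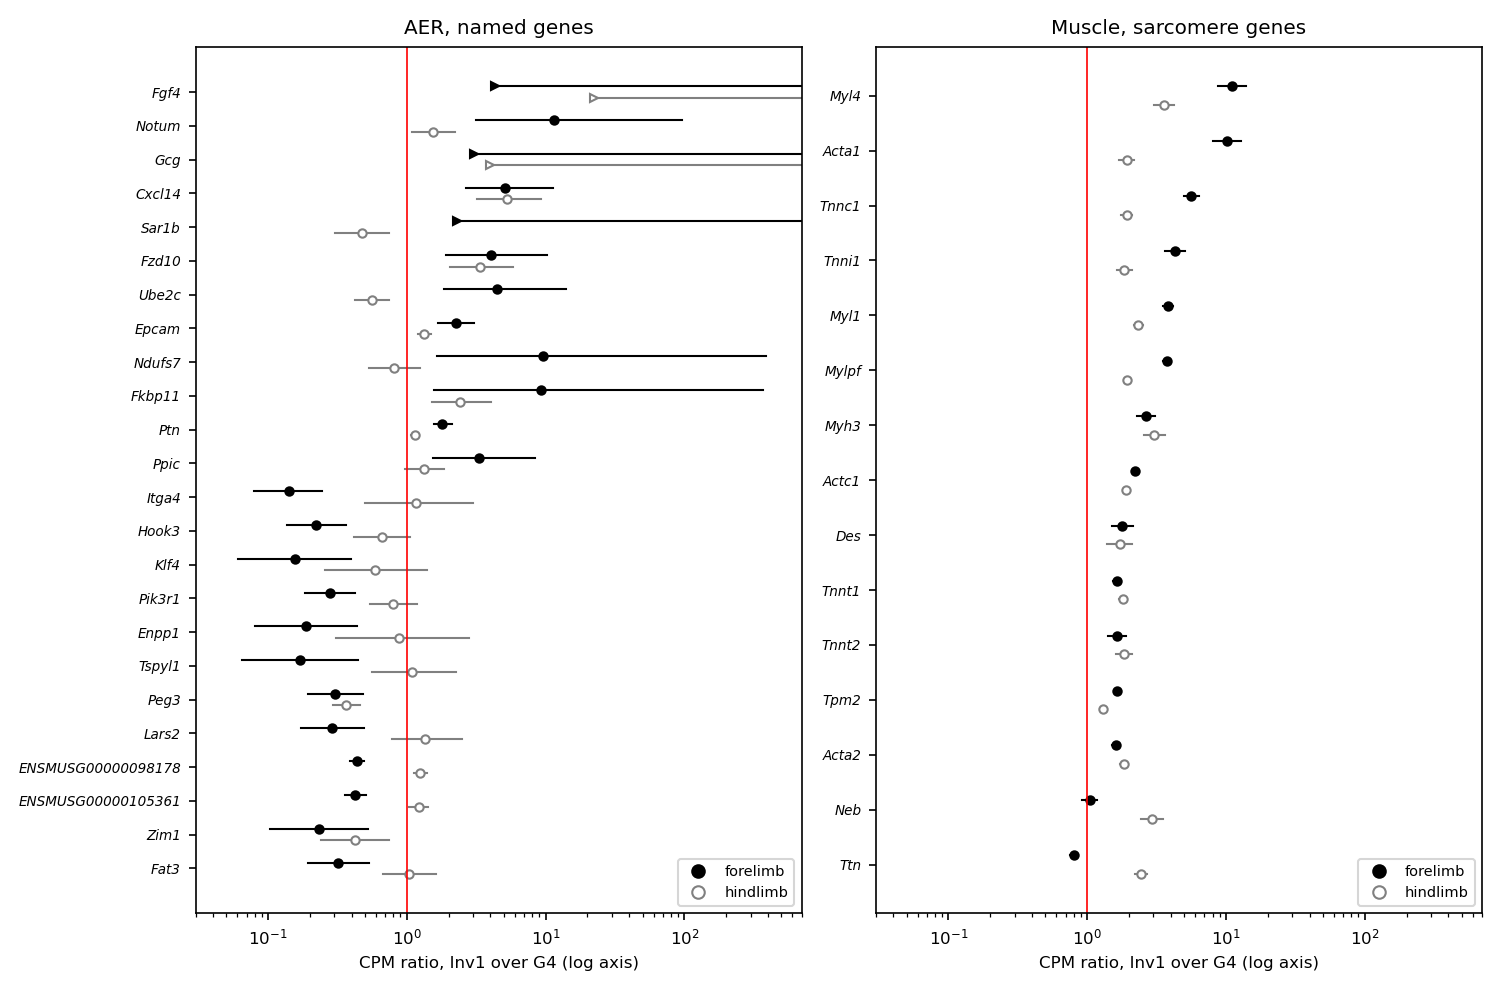
Ratio of CPM (horizontal axis, logarithmic), Inv1 over G4 wild type, of the 24 genes named in AER cells (left) and of the 15 sarcomere genes measured in muscle (right), filled for the forelimb and open for the hindlimb pair, with counting intervals and with arrowheads at the lower interval limit where G4 wild type had 0 UMIs. Fgf4, Gcg, Cxcl14 and Fzd10 lie above 1 in both limbs, Sar1b and Ube2c on opposite sides of it, and 14 of the 15 sarcomere genes lie above 1 in the forelimb.

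In dorso-ventral ectoderm, 29 of 3094 genes (0.937%) were 2-fold or more higher and 151 (4.88%) 2-fold or more lower in Inv1, and higher genes made up 16.1% of these, 35.7% under median-of-ratios scaling, 41.6% relative to genes of like length and 40.2% relative to mesenchyme. Keratins of the basal epidermis led the higher genes. Krt14 had 955 CPM in Inv1 and 395 CPM in G4 wild type (544 and 105 UMIs, 2.42, 1.96 to 3.01), with 1.64 (1.41 to 1.91) in the hindlimb pair. Krt15 had 101 UMIs in 18 Inv1 cells and 3 UMIs in 3 G4 wild-type cells (15.7, 5.23 to 77.5), with 1.87 in the hindlimb pair, and Krt5, the partner of Krt14, was at 1.71 (1.29 to 2.28) and 1.07. Over the 19 surface ectoderm genes, 13 were measured, with 7 higher and 6 lower, so the keratins did not stand for the whole list.

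Mt1, a metallothionein gene, had 155 CPM in Inv1 and 37.6 CPM in G4 wild-type ectoderm (4.11, 2.13 to 8.87). Cxcl14 was higher here too, at 2702 CPM in Inv1 and 1642 CPM in G4 wild type (1.65, 1.48 to 1.83), and at 1.45 in the hindlimb pair. It was also higher in mesenchyme, at 1.81, so that relative to mesenchyme its ratio in ectoderm was 0.910. Cxcl14 was higher in Inv1 in AER cells, ectoderm and mesenchyme of both limbs, but the forelimb AER ratio was 1.04 with the marker gate.

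Among the lower genes, Bhlha9, a basic helix-loop-helix factor of the distal limb ectoderm known from human limb malformations, had 61 UMIs in 22 of 45 Inv1 cells and 79 UMIs in 20 of 24 G4 wild-type cells. This was 107 CPM in Inv1 and 297 CPM in G4 wild type, 0.361 (0.254 to 0.510), with 0.568 (0.480 to 0.671) in the hindlimb pair. Ptch1, the Hedgehog receptor and target gene, had 28.1 CPM in Inv1 and 199 CPM in G4 wild type (0.141, 0.0753 to 0.251), and 0.615 in the hindlimb pair. Fos, an immediate early gene, was at 0.0644 (4 and 29 UMIs, 0.0165 to 0.184) and 0.267. Ebf1 was at 0.0596, but its 47 G4 wild-type UMIs came from 4 cells, and it was higher in Inv1 in the hindlimb pair (26 and 2 UMIs, 9.92).

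All of the 8 AER regulators and ligands measured in dorso-ventral ectoderm were lower in Inv1, none past 2-fold, with a median log2 ratio of -0.26 beside -0.17 for all genes and -0.94 in the hindlimb pair. Relative to genes of like length, 62.5% of these 8 were higher, so the direction in the forelimb depended on the scaling. Of 16 proliferation genes, 3 were higher and 13 lower, beside 36.5% of all genes higher, with a median log2 ratio of -0.38, or -0.11 relative to genes of like length. Mki67 was at 0.356 (48 and 63 UMIs, 0.239 to 0.526), but at 1.14 in the hindlimb pair, where 12 of the 16 were higher. Immediate early genes were lower in all of the 5 measured.

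Keratinocytes, the class of outer and differentiating epidermis, had 58 of 3214 genes (1.80%) 2-fold or more higher and 149 (4.64%) 2-fold or more lower in Inv1, with higher genes 28.0% of these, 46.9% under median-of-ratios scaling, 50% relative to genes of like length and 58.7% relative to mesenchyme. S100a14, a calcium-binding protein gene of epithelia, had 58 UMIs in 14 of 29 Inv1 cells and 0 UMIs in 15 G4 wild-type cells, at least 10.2-fold higher, with 41 and 0 UMIs in the hindlimb pair, at least 7.69-fold. The imprinted non-coding RNA H19 had 1968 CPM in Inv1 and 351 CPM in G4 wild type (5.61, 4.50 to 7.09), and 17.5 in the hindlimb pair. The homeobox gene Msx1 was at 5.02 (95 and 10 UMIs, 2.61 to 10.8) and 1.18, and Sat1, of polyamine breakdown, at 8.36 (95 and 6 UMIs) and 1.51. The lower genes named, Map4k3, Sf3a1, Kif4, Dnmt3a and Ubqln2, had ratios of 0.237 to 0.356, and none had a hindlimb interval below 1.

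In mesenchyme, which gave the most counts, few genes moved far. Of 3467 genes, 3 (0.0865%) were 2-fold or more higher in Inv1 and 7 (0.202%) 2-fold or more lower. At 1.25-fold these were 85 (2.45%) and 834 (24.1%), and relative to genes of like length, over the 3428 genes with a length, 188 higher and 219 lower. Higher genes made up 30.0% of those past 2-fold, and 50% relative to genes of like length. Counting intervals are narrow here, so single ratios are well determined for these libraries, although the spread between embryos is unknown.

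Signal-responsive early genes led the higher ones. Egr1, an immediate early zinc-finger factor and a target of ERK, had 147 CPM in Inv1 and 44.9 CPM in G4 wild type (5268 and 1050 UMIs, 3.28, 3.07 to 3.51), with 3.22 in the hindlimb pair. Fos had 149 CPM and 79.3 CPM in Inv1 and G4 wild type (1.88) and Ier2 had 428 CPM and 234 CPM (1.83), with hindlimb ratios of 1.27 and 1.25. Cyr61, a matricellular gene, was at 2.70 (120 CPM and 44.5 CPM, 2.52 to 2.89) and 1.99. Of 16 immediate early and dissociation genes, 6 were measured, 4 past 1.25-fold higher and 0 past 1.25-fold lower, beside 2.45% and 24.1% of all genes. Their median log2 ratio was 0.60 in the forelimb and 0.32 in the hindlimb pair. Junb, below the filter, had 66.7 CPM in Inv1 and 16.3 CPM in G4 wild type (4.10, 3.68 to 4.58), and 1.52 in the hindlimb pair. In dorso-ventral ectoderm and in immune cells the same list was lower in Inv1, with median log2 ratios of -0.77 and -1.35. These genes are also induced by dissociation of tissue, and its part in these values was not tested.

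Targets of FGF signalling were uneven. Of 13 feedback targets, 4 were measured in mesenchyme, 3 past 1.25-fold lower and 0 past 1.25-fold higher, beside 24.1% and 2.45% of all genes. Their median log2 ratio was -0.50, or -0.16 relative to genes of like length, and 0.18 in the hindlimb pair. Dusp6, a phosphatase gene that responds to FGF, had 73.7 CPM in Inv1 and 105 CPM in G4 wild type (0.703, 0.665 to 0.743), with 0.779 in the hindlimb pair. Spry2 had 92.2 CPM in Inv1 and 74.5 CPM in G4 wild type (1.24, 1.17 to 1.31), with 1.25 in the hindlimb pair. Spred1 was at 0.712, but at 1.14 in the hindlimb pair. The ETS factors Etv4 and Etv5, below the filter, were at 0.784 and 0.781 in the forelimb and at 0.757 and 0.771 in the hindlimb pair. Dusp6, Etv4 and Etv5 were thus lower and Spry2 higher in both limbs.

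Shh, its target Ptch1, Grem1 and Fgf10 were lower in forelimb mesenchyme. Shh itself, below the filter, had 34 UMIs in Inv1 and 54 UMIs in G4 wild type (0.412, 0.260 to 0.644), with 0.495 in the hindlimb pair. Ptch1 had 58.9 CPM in Inv1 and 86.9 CPM in G4 wild type (0.678, 0.637 to 0.720) and the BMP antagonist gene Grem1 had 13.7 CPM and 26.4 CPM (0.518, 0.459 to 0.584). In the hindlimb pair, these stood at 1.18 and 1.55. Fgf10, the mesenchymal FGF that acts on the ridge, had 10.5 CPM in Inv1 and 23.2 CPM in G4 wild type (0.450, 0.394 to 0.515), and 0.950 in the hindlimb pair. Grem1 and Fgf10 were below the filter too. Of 11 pathway genes, 4 were measured, 1 higher and 3 lower, beside 43.2% of all genes higher. Their median log2 ratio was -0.30, or -0.12 relative to genes of like length. Of the genes named here, Shh alone was lower in both limbs beyond counting error.

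The Id genes of the BMP response and Msx2 were higher. Id1 had 1191 CPM in Inv1 and 823 CPM in G4 wild type (1.45, 1.42 to 1.47), Id3 had 943 CPM and 694 CPM (1.36, 1.33 to 1.38), and Id2 was at 1.18. Msx2, a BMP-responsive homeobox gene, had 84.9 CPM in Inv1 and 56.5 CPM in G4 wild type (1.50, 1.41 to 1.60). In the hindlimb pair all of these were below 1, at 0.941, 0.845, 0.874 and 0.710. Over the list of 9, 6 were measured, 4 higher and 2 lower, beside 43.2% of all genes higher. Past 1.25-fold, 2 were higher and 0 lower, beside 2.45% and 24.1% of all genes. The median log2 ratio of the list was 0.15 in the forelimb and -0.20 in the hindlimb pair. In mesenchymal cells with no UMI of Hoxa13 or Hoxd13, genes of the distal bud, 20.0% of the measured members were higher, and under median-of-ratios scaling all were.

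Of 17 distal limb genes, 9 were measured, 0 past 1.25-fold higher and 3 past 1.25-fold lower, beside 24.1% of all genes past 1.25-fold lower. Their median log2 ratio was -0.25, or -0.17 relative to genes of like length, and -0.04 in the hindlimb pair. The LIM-homeobox genes of the distal bud, Lhx2 and Lhx9, were at 0.711 (98.0 CPM and 138 CPM in Inv1 and G4 wild type) and 0.646 (215 CPM and 332 CPM), and at 0.765 and 0.827 in the hindlimb pair. Cyp26b1, which clears retinoic acid from the distal bud, was at 0.479 (101 CPM and 212 CPM, 0.458 to 0.50), but at 1.08 in the hindlimb pair. The autopod Hox genes Hoxd13 and Hoxa13 were at 0.833 and 0.890 in the forelimb and at 1.40 and 1.37 in the hindlimb pair. Hoxd12 and Hoxd11 were at 1.09 and 1.04.

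Proximal genes were lower in all of the 6 measured of 14, 4 past 1.25-fold, beside 24.1% of all genes past 1.25-fold lower. Their median log2 ratio was -0.64, or -0.50 relative to genes of like length, and -0.15 in the hindlimb pair. Shox2, needed for the upper limb bone, had 130 CPM in Inv1 and 198 CPM in G4 wild type (0.654, 0.627 to 0.681), and 0.737 in the hindlimb pair. Tbx15, a T-box factor of the girdle and proximal limb, was at 0.575, and at 0.944 in the hindlimb pair.

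Genes of cartilage formation were lower as well, in all of the 7 measured of 16, 6 past 1.25-fold, beside 24.1% of all genes past 1.25-fold lower. Their median log2 ratio was -0.64, or -0.40 relative to genes of like length, and -0.15 in the hindlimb pair. Sox9, the master factor of cartilage, had 203 CPM in Inv1 and 322 CPM in G4 wild type (0.632, 0.612 to 0.653), and 0.904 in the hindlimb pair. Its target Col2a1, the cartilage collagen gene, had 111 CPM in Inv1 and 218 CPM in G4 wild type (0.509, 0.488 to 0.530), and 0.784 in the hindlimb pair. Col9a1 and Col11a1 were at 0.762 and 0.790, but at 1.23 and 1.22 in the hindlimb pair. Fewer cartilage cells and less RNA per cell cannot be told apart in these sums. Tendon and connective tissue genes gave 2 higher and 5 lower of 7 measured (of 12), beside 43.2% of all genes higher. Scx, the tendon factor, was at 1.04, and the proteoglycan gene Lum at 1.49 (67.7 CPM and 45.6 CPM) and 1.46 in the hindlimb pair.

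**Figure D5:**
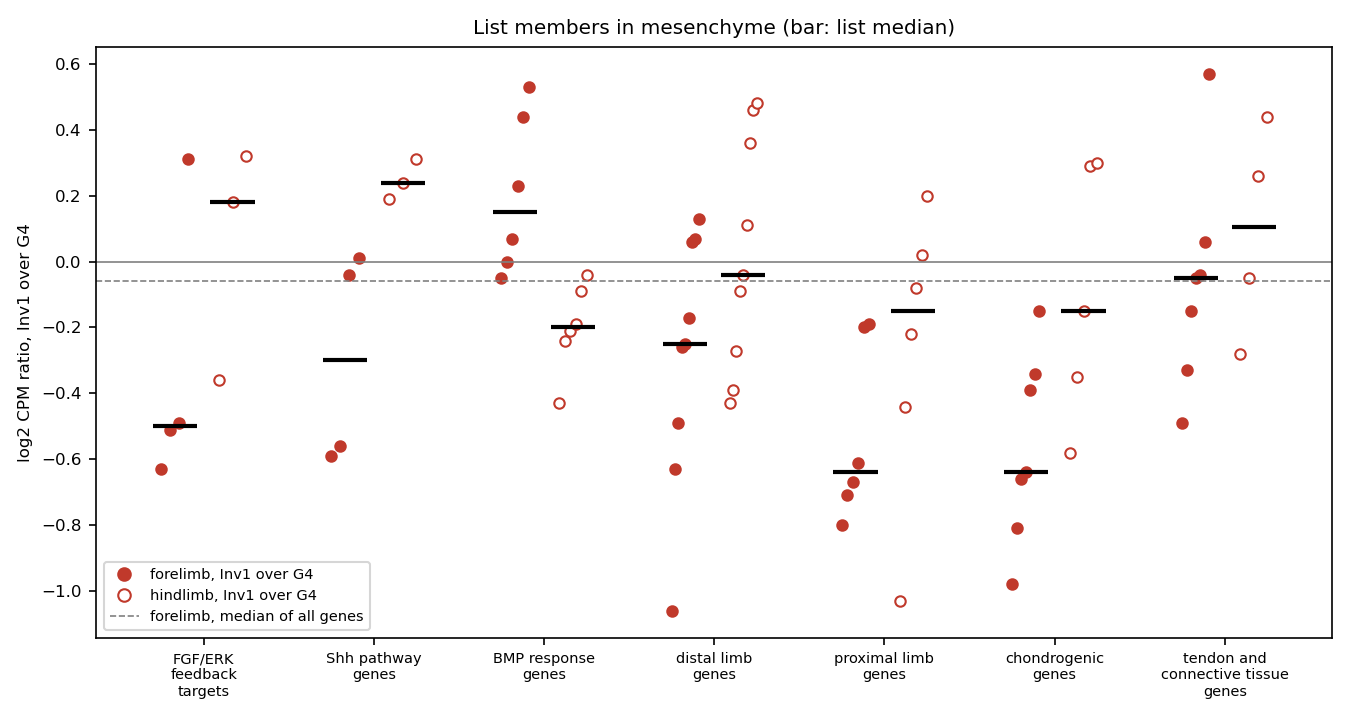
Log2 ratio of CPM (vertical axis), Inv1 over G4 wild type, of the measured members of 7 gene lists in mesenchyme (horizontal axis), filled for the forelimb and open for the hindlimb pair, with a bar at each list's median and a dashed line at the forelimb median of all genes, -0.06. The medians of proximal and chondrogenic genes are -0.64 in the forelimb and -0.15 in the hindlimb pair, and that of BMP response genes is 0.15 in the forelimb and -0.20 in the hindlimb pair.

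Lower genes in mesenchyme included a pair of imprinted neighbours on chromosome 6, Asb4, a ubiquitin ligase adaptor gene, and the retrotransposon-derived Peg10. Asb4 had 27.7 CPM in Inv1 and 140 CPM in G4 wild type (992 and 3274 UMIs, 0.198, 0.184 to 0.213), and 0.551 in the hindlimb pair. Peg10 had 30.0 CPM and 87.3 CPM in Inv1 and G4 wild type (0.343, 0.318 to 0.370), and 0.699 in the hindlimb pair. The growth factor gene Igf2 was at 0.442 (0.413 to 0.473) and 0.573, and its imprinted neighbour H19 was higher, with 600 CPM in Inv1 and 245 CPM in G4 wild type (2.45, 2.38 to 2.52), and 3.69 in the hindlimb pair. Lars2, the mitochondrial leucyl-tRNA synthetase gene, was at 0.419 in the forelimb but at 0.967 in the hindlimb pair, and Smad5, a BMP signal transducer gene, at 0.525 and 1.05. Of the 12 higher and 12 lower genes named, 10 higher and 5 lower ones had a hindlimb interval on the same side of 1, and 1 higher and 3 lower ones on the opposite side. Of all genes measured in hindlimb mesenchyme, 53.9% were higher in Inv1. The share of all genes with an interval on either side was not counted, and with narrow intervals it may be large.

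In muscle, 24 of 3047 genes (0.788%) were 2-fold or more higher and 43 (1.41%) 2-fold or more lower in Inv1. Higher genes made up 35.8% of these, 60.0% under median-of-ratios scaling, 90.0% relative to genes of like length and 94.1% relative to mesenchyme. Genes of the contractile apparatus led. Of 16 sarcomere genes, 15 were measured, 8 past 2-fold higher and 0 past 2-fold lower. In the forelimb, 14 were higher and 1 lower, beside 1188 of all 3047 genes higher. Their median log2 ratio was 1.14, beside -0.11 for all genes. It was 0.94 in the hindlimb pair, where all 15 measured were higher.

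Acta1, skeletal alpha-actin, had 417 CPM in Inv1 and 41.1 CPM in G4 wild type (1254 and 83 UMIs, 10.2, 8.13 to 12.8), with 1.92 in the hindlimb pair. The embryonic myosin light chain gene Myl4 had 445 CPM and 40.6 CPM in Inv1 and G4 wild type (11, 8.77 to 13.9), with 3.59 in the hindlimb pair. Troponin C genes Tnnc1 and Tnnc2 were at 5.63 (4.96 to 6.41) and 6.57 (5.53 to 7.86), with 1.93 and 2.73 in the hindlimb pair. Genes that come on earlier differed less, with Actc1, cardiac alpha-actin, at 2.20 (2595 CPM and 1181 CPM), the intermediate filament gene Des at 1.78 and embryonic myosin Myh3 at 2.66. As measured, Ttn, the titin gene, was the exception at 0.806 (691 CPM and 857 CPM, 0.756 to 0.860), against 2.46 in the hindlimb pair. Relative to genes of like length, however, the measured sarcomere genes were all higher in the forelimb. The longest transcripts in muscle had a median log2 ratio of -0.49 in the forelimb and 0.14 in the hindlimb pair.

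Few cells held most UMIs of the late genes, in both genotypes. In Inv1, the 10 cells with most UMIs held 88.4% of all Acta1 UMIs, 95.7% of those of Sln, a regulator of the calcium pump, and 82.3% of those of Tnnc1. In G4 wild type the share was 86.9% for Tnnc1. Acta1 and Sln were counted in fewer than 10 G4 wild-type cells, which fixes their shares at 100%. Acta1 was counted in 16.7% of Inv1 and 5.36% of G4 wild-type muscle cells (28 and 6 cells) and Sln in 10.1% and 2.68% (17 and 3 cells). Myl1, a myosin light chain gene, was counted in 70.8% (63.3 to 77.6) of Inv1 and 50% (40.4 to 59.6) of G4 wild-type cells, with 29.7 and 11.1 UMIs per positive cell. Mesenchyme had Acta1 UMIs in 47 of 3337 Inv1 and 26 of 2570 G4 wild-type cells, and Myl1 UMIs in 96 and 65 cells, at the median depths given above. Muscle cells had medians of 16457 UMIs in Inv1 and 16404 UMIs in G4 wild type. With each cell weighted equally, the ratio of Acta1 was 7.01 and that of Myl4 5.90 with 0.5 counts added.

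Regulators of the muscle lineage moved in both directions. Of 15, 9 were measured, 0 past 2-fold, 6 higher and 3 lower, beside 1188 of all 3047 genes higher. Their median log2 ratio was 0.05, beside -0.11 for all genes measured in forelimb muscle. Myod1 and Myog, the factors of commitment and differentiation, had 490 CPM and 744 CPM in Inv1 and 399 CPM and 638 CPM in G4 wild type. Their ratios were 1.23 (1.13 to 1.34) and 1.17 (1.09 to 1.25), and 1.33 and 1.41 in the hindlimb pair. Pax3, the factor of the migrating precursors, had 31.0 CPM in Inv1 and 61.9 CPM in G4 wild type (93 and 125 UMIs, 0.50, 0.378 to 0.659), and 0.627 in the hindlimb pair. Met, the receptor gene these precursors need, was at 0.645 (0.532 to 0.781) and 0.953. Pax3 was counted in 27.4% (20.8 to 34.8) of Inv1 and 48.2% (38.7 to 57.9) of G4 wild-type muscle cells. With Lbx1 at 0.711, 3 genes of migrating precursors were lower while sarcomere genes were higher, and a shift in the mix of muscle cells and a change within cells cannot be told apart in these sums.

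Dlk1, an imprinted Notch-related gene, was at 15.8 (376 and 16 UMIs in Inv1 and G4 wild type, 9.60 to 27.9) and 2.10 in the hindlimb pair, and Sln at 23.0 (513 and 15 UMIs, 13.8 to 41.4) and 3.90. All of the 8 higher genes named in muscle had a hindlimb interval above 1. Of all genes measured in hindlimb muscle, 50.4% were higher in Inv1, and the share with an interval above 1 was not counted. Lower genes, such as Lars2 at 0.309 and the RNA helicase gene Ddx3x at 0.403, were lower in forelimb mesenchyme too, at 0.419 and 0.507, and stood at 1.06 and 1.12 in the hindlimb pair. Igf2 was at 0.341 (34.6 CPM and 102 CPM) and 0.635.

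Endothelial cells had 36 of 3325 genes (1.08%) 2-fold or more higher and 231 (6.95%) 2-fold or more lower in Inv1. Higher genes made up 13.5% of these, 24.9% under median-of-ratios scaling and 35.7% relative to genes of like length. Tm4sf1, a tetraspanin-like gene of endothelium, had 236 CPM in Inv1 and 31.5 CPM in G4 wild type (7.49, 4.19 to 14.8), with 1.75 in the hindlimb pair, and Esm1, a gene of sprouting tip cells, was at 6.32 (92 and 7 UMIs, 2.95 to 16.2), with 0.913. The lower genes included mesenchymal ones, such as Gpc3 (4 and 41 UMIs, 0.0469), Lhx9 (4 and 37 UMIs, 0.0520) and Ptn (10 and 43 UMIs, 0.112). The 16 mesenchyme markers summed to 64.3 CPM in Inv1 and 443 CPM in G4 wild-type endothelial cells, with 14 detected in each genotype, not all of them the same. Their part in the lower genes of this class was not tested.

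Immune cells, 11 in Inv1 and 13 in G4 wild type, had 321 of 2788 genes 2-fold or more higher and 453 (16.2%) 2-fold or more lower. Ifitm1, an interferon-inducible gene, had 544 UMIs in 5 of 11 Inv1 cells and 0 in G4 wild type, at least 110-fold higher. The platelet and myeloid gene Rgs18 had 98 UMIs in 5 Inv1 cells and 0 in G4 wild type, at least 19.8-fold. Trem2, a macrophage receptor gene, had 0 UMIs in Inv1 and 42 UMIs in 10 of 13 G4 wild-type cells, at least 23.1-fold lower, and the chemokine genes Ccl3 and Ccl4 had 0 UMIs in Inv1 and 26 and 25 UMIs in G4 wild type. Immune markers summed to 4413 CPM in Inv1 and 10975 CPM in G4 wild type. Of the 10 genes named, only Ifitm1 and Rgs18 kept their direction beyond counting error in the hindlimb pair, and 6 had a hindlimb interval on the opposite side. Of all genes measured in hindlimb immune cells, 47.8% were higher in Inv1, and the share with such an interval was not counted.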

How the data were processed

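Limb buds at stage E11.5 were dissociated with trypsin and profiled by droplet single-cell RNA-seq. The authors deposited unnormalised UMI counts for every gene in every cell, from Cell Ranger 3 and a mouse mm9 reference (mm10 also appears in the submitters' processing notes); the annotation release and use of strand are not given in the sources used here. The authors' filters on detected genes, mitochondrial UMIs and doublets were kept as deposited, and the matrix of 19542 cells held cells down to 1492 detected genes, so the limit of 2000 was applied again. It left out 367 Inv1 and 222 G4 wild-type forelimb cells. Libraries and classes were read from the authors' table of barcodes. Another 13 columns with values of single samples stayed out. Of 16687 genes, 15201 had a symbol of their own, 1468 none and 18 a shared one.

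UMIs were summed per class and library and scaled to CPM. Sums have exact Poisson, shares exact Clopper-Pearson and ratios exact conditional binomial intervals at 95%. Where 1 library had 0 UMIs, a fold was bounded against 3 counts. No test was made. Calls of 2-fold used genes with a mean of 50 CPM and 20 UMIs, with 0.5 counts added.

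Named genes were those with the highest or lowest ratio by the interval end nearest 1, with a UMI in 3 or more cells of the higher library, leaving out locus, globin, Xist and Y-linked genes. They were 12 each way in AER cells and mesenchyme, 8 in dorso-ventral ectoderm and muscle and 5 elsewhere, and any gene of the 21 lists (291 genes, 12 without a row). Members and lists were chosen with earlier results of these data known. Python 3.11.15 with numpy 2.4.6, pandas 2.3.3, scipy 1.17.1 and matplotlib 3.10.9 was used, and the calculation was tested on simulated data.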

Additional observations from a re-analysis of the deposited data

Results flagged for a closer look

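Some genes stood on opposite sides of 1 in the forelimb and hindlimb pairs, with both counting intervals leaving out 1. The difference between limbs was compared by counting error only, since each limb had 1 library per genotype. Values are the forelimb ratio over the hindlimb ratio, Inv1 over G4 wild type in each. They were not adjusted for transcript length. In mesenchyme the median log2 ratio of the longest transcripts was -0.40 in the forelimb and 0.11 in the hindlimb pair, and in muscle -0.49 and 0.14. Long transcripts therefore tended to quotients below 1, and the part of length in single quotients was not tested.

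In AER cells this quotient was 8.01 for Ube2c, 0.353 for ENSMUSG00000098178 and 0.350 for ENSMUSG00000105361, and Sar1b, with 0 UMIs in G4 wild-type forelimb cells, was at least 2.94-fold higher in Inv1 forelimb and lower in Inv1 hindlimb cells. It was 0.00601 for Ebf1 in dorso-ventral ectoderm, 0.138 for Dnmt3a in keratinocytes and 0.328 for Ttn in muscle.

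In mesenchyme, BMP response genes were relatively higher in the forelimb pair, with quotients of 1.54 for Id1, 1.35 for Id2, 1.61 for Id3 and 1.42 for Msx1. Patterning genes gave 0.648 for Hoxa13, 0.596 for Hoxd13, 1.07 for Hoxd11, 0.759 for Hoxa9, 0.574 for Ptch1 and 0.443 for Cyp26b1. Matrix and connective tissue genes gave 0.620 for Col9a1, 0.647 for Col11a1, 0.745 for Col5a2 and 0.589 for Tcf4. The others were Spred1 at 0.627, Tnrc6c at 0.264, Ddx3x at 0.448 and ENSMUSG00000103034 at 1.96.

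In endothelial cells the quotient was 0.0166 for Gpc3 and 0.0675 for Nnat. In immune cells it was 258 for Tuba4a, and Tspan32 was at least 12.7-fold higher in Inv1 forelimb cells, while Rgs1, Ccl3, Ccl4 and Clec4a2, with 0 UMIs in Inv1 forelimb cells, were at least 23.6-fold, 14.3-fold, 13.7-fold and 11-fold lower there. These immune values rest on 11 Inv1 and 13 G4 wild-type cells.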

How the results depend on the processing

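Alternatives were another scaling, filter, cell limit, weighting of cells or choice of AER cells. Those relative to mesenchyme or to genes of like length and the 1.25-fold limit were chosen after seeing the data. No paired analysis was possible because each genotype had 1 library per limb. Leaving out a library was not possible for the same reason. All 15 values of class shares, the 8 comparisons of fore- and hindlimb, 55 locus values (1 did not), 184 list values (11 did not) and 563 values of named genes (76 did not) stayed within the limits set for a change. The directions that turned were Dpcd in AER cells (1.11 with the marker gate, 0.496 before), Cxcl14 in dorso-ventral ectoderm (0.910 relative to mesenchyme, 1.64 before) and AER regulators in dorso-ventral ectoderm (62.5% higher relative to genes of like length, 0 before). Depth limits the AER and immune classes most, at 41.3 CPM for 3 counts in G4 wild-type AER cells.

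Counts past 2-fold moved with the filter. At a mean of 10 CPM, the higher and lower counts were 665 and 2139 in AER cells, 271 and 1101 in dorso-ventral ectoderm, 487 and 926 in keratinocytes, 7 and 38 in mesenchyme, 86 and 327 in muscle, 202 and 1322 in endothelial and 1016 and 2206 in immune cells. At 200 CPM they were 17 and 38, 2 and 8, 6 and 6, 1 and 1, 10 and 3, 4 and 12, and 71 and 108 in the same order of classes.

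Under median-of-ratios scaling the lower counts were 237 in AER cells, 81 in dorso-ventral ectoderm, 94 in keratinocytes and 18 in muscle, and the higher counts 45 in dorso-ventral ectoderm and 55 in endothelial cells. Relative to genes of like length the lower counts were 152 in AER cells, 59 in dorso-ventral ectoderm, 77 in keratinocytes, 4 in mesenchyme, 3 in muscle and 74 in endothelial cells, and the mesenchyme counts past 1.25-fold were 188 higher and 219 lower, against 85 and 834 as measured. Relative to mesenchyme they were 198 in AER cells, 55 in dorso-ventral ectoderm, 81 in keratinocytes and 2 in muscle, and the higher count of keratinocytes, which also moved, is not given. The marker gate gave 85 higher and 177 lower genes in AER cells. Cells with more than 3000 detected genes gave 286 lower in dorso-ventral ectoderm and 12 in mesenchyme, and this limit left too few G4 wild-type AER cells. The mean over cells gave 93 higher in keratinocytes and 58 in endothelial cells.

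Of the lists, the share of measured members that were higher became 85.7% for AER regulators in AER cells and 71.4% for tendon genes in mesenchyme relative to genes of like length, where sarcomere genes in muscle and BMP response genes in mesenchyme reached 100%. It became 71.4% for Wnt targets and 7.14% for proliferation genes in AER cells with the marker gate. It became 50% for AER regulators and 84.6% for surface ectoderm genes in dorso-ventral ectoderm relative to mesenchyme. BMP response genes in mesenchyme had 100% under median-of-ratios scaling and 20.0% in cells with no Hoxa13 or Hoxd13 UMI. Apart from the scalings' own construction, the cause was not tested.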

Other observations

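Imprinted genes, singled out after their values were seen, differed across many classes. H19, the maternally expressed non-coding RNA beside Igf2, was higher in Inv1 in 6 of the 7 forelimb classes. Its ratios were 2.05 in dorso-ventral ectoderm, 5.61 in keratinocytes, 2.45 in mesenchyme, 3.10 in muscle, 2.84 in endothelial and 13.4 in immune cells. AER cells stood at 0.969, with H19 in 13 Inv1 and 4 G4 wild-type cells. The immune value rests on 4 Inv1 cells and 1 G4 wild-type cell. Both ratios are loosely determined, so a difference of AER cells from the other classes is not established. In the hindlimb pair, H19 was at 2.29, 17.5, 3.69, 2.97, 3.63 and 4.84 in the same order and at 1.67 in AER cells.

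In mesenchyme and muscle, the share of cells with H19 differed more than the amount per positive cell. In mesenchyme, H19 was counted in 81.8% (80.5 to 83.1) of Inv1 and 32.6% (30.8 to 34.5) of G4 wild-type cells, with 7.86 and 6.82 UMIs per positive cell. In muscle it was counted in 99.4% of Inv1 and 40.2% of G4 wild-type cells, with 16.2 and 13 UMIs per positive cell, and in AER cells in 33.3% and 40.0%. In hindlimb mesenchyme the shares were 74.6% in Inv1 and 25.3% in G4 wild type.

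Igf2 was lower, at 0.442 in mesenchyme, 0.341 in muscle, 0.383 in keratinocytes and 0.285 in endothelial cells of the forelimb, and at 0.573, 0.635, 0.591 and 1.33 in the hindlimb pair. Asb4 was at 0.198 in mesenchyme and 0.414 in muscle (0.551 and 0.862 in the hindlimb pair), and Peg10 at 0.343 and 0.468 (0.699 and 1.13). Other imprinted genes were uneven. In forelimb mesenchyme Meg3 stood at 0.990, Cdkn1c at 0.931 and Nnat at 1.06. Peg3 was counted there in 65.2% of Inv1 and 72.0% of G4 wild-type cells, with 2.87 and 3.29 UMIs per positive cell. In hindlimb mesenchyme its shares were 75.9% and 82.2%. Nnat was at 0.110 in forelimb and 1.64 in hindlimb endothelial cells. Values of Peg3 and Zim1 in AER cells and of Dlk1 in muscle are given above. Inv1 and G4 wild-type embryos differ in genotype, in breeding and in library, and these cannot be told apart.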
